A study of Mus musculus with 2 samples.

Results

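Nuclear receptor coactivators and the acetyltransferases that work with them were described at the histone mark H3R17me2a in mouse heart, as 9 genes of the 21887 protein-coding genes on the autosomes, X and Y. The members were given as a list of symbols, and the rule used no measured value. They were, however, chosen with earlier results of these data known. The set holds the p160 coactivators Ncoa1, Ncoa2 and Ncoa3, the coactivator Ncoa6, the receptor corepressor Ncor1, and the acetyltransferases Ep300, Crebbp, Kat2a and Kat2b. Ncor1 is a corepressor by its known role, so the set is not made up of coactivators alone. For each gene, peaks were taken over its span in the mouse build mm10 and 5000 bp either side, which gave 17 of the 21496 peaks in the list of sample 1 and 31 of the 38012 peaks in the list of sample 2. Both samples were wild-type mouse heart at 21 days of age, in 1 group with no other genotype, treatment, time or control analysed here. Their titles name carm1 while the genotype label is wild type, the source label names cardiac fibroblasts while tissue and protocol name whole frozen heart, and the series calls the hearts neonatal. The labels do not say whether animals were pooled or whether the 2 samples came from separate animals, and the antibody is named once as against H3R17me2a and once as against H3R17me2.

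Receptors of the nuclear hormone family bind DNA and, with ligand, take up p160 coactivators, which themselves carry little enzyme activity and act as platforms. The platforms bring in the acetyltransferases p300 (Ep300) and CBP (Crebbp), which acetylate histone tails, and Carm1, the arginine methyltransferase that places the asymmetric dimethyl mark H3R17me2a. The mark is known from work on other cells to lie with acetylated H3 at active genes. Chromatin immunoprecipitation with sequencing (ChIP-seq) collects the DNA fragments that carry such a mark, and peaks are the stretches at which those fragments outnumber a background estimate. The fold of a peak is the authors' linear ratio of fragments to background at its summit, its highest point, and is used here only to describe and rank peaks within a list.

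The lists were treated as 2 peak calls on 1 sample, without replicate error, because the reads behind them were close to identical. The number of ChIP reads at each summit could be recovered from the deposited fold and p for 99.87% of list 1 and 99.88% of list 2 peaks. A background was recovered with them, and in list 2 it is on the scale of reads multiplied by 0.6183. List 2 backgrounds are therefore not comparable with those of list 1 or, without that factor, with list 2 reads. Among the 8812 overlapping pairs with the same summit base, the difference in reads had an SD of 0.291 in units of counting error. Counting alone would give independent libraries an SD near 1, and the observed difference, being less than sampling noise, is why they count as 1 sample. At the 9 genes, 17 list 1 peaks overlapped 17 list 2 peaks, and 11 of these pairs differed by at most 2 reads. List 1 stopped at a −log10 p of 5, whereas list 2 went down to 2.01 and had 51.3% of its peaks under 5. Total library depth is unknown. Cardiomyocyte marker genes carried peaks of both lists at a gene end in 9 of 10 cases (90.0%), against 38.6% of all protein-coding genes. Fibroblast markers carried them in 0 of 10, endothelial in 2 of 8 (25%), immune in 1 of 7 (14.3%) and smooth muscle markers in 1 of 5 (20%). These counts do not bear out the fibroblast label, but whether such peaks report the cell type was not tested. In whole tissue, a mark in fewer cells and less of the mark per cell cannot be told apart.

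Peaks of both lists lay at an end of 7 of the 9 genes, counting as an end all positions up to 1000 bp from a limit of the gene span. Ncoa1, Ncoa2, Ncoa6, Ncor1, Ep300, Crebbp and Kat2b had such peaks, Kat2a had one in list 2 alone, and Ncoa3 had none in either list. Over all protein-coding genes the share marked in this way was 38.6%, and over genes of 50 kb or more, to which 8 of the 9 belong, 43.7%. List 1 alone gave the same 7 genes, against 39.2% of all genes, and list 2 alone gave 8, against 46.2%. Ncoa3 was the 1 gene of the 8 long ones with no gene-end peak in either list, as were 47.1% of all genes of that length. The count rested on weak list 2 peaks. When a −log10 p of 5 or more was asked of every peak, Ncor1, Ep300 and Crebbp were left, 3 of the 9, which is near the 33.0% of all genes. With the upper 50% of each list by fold, Ncoa6 alone was left, against 12.3% of all genes. It was left through its lower end, where the peaks lie outside the Ncoa6 span and overlap the neighbour Trp53inp2. No test was run on these counts, since the members were chosen with results of these data known.

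**Figure D1:**
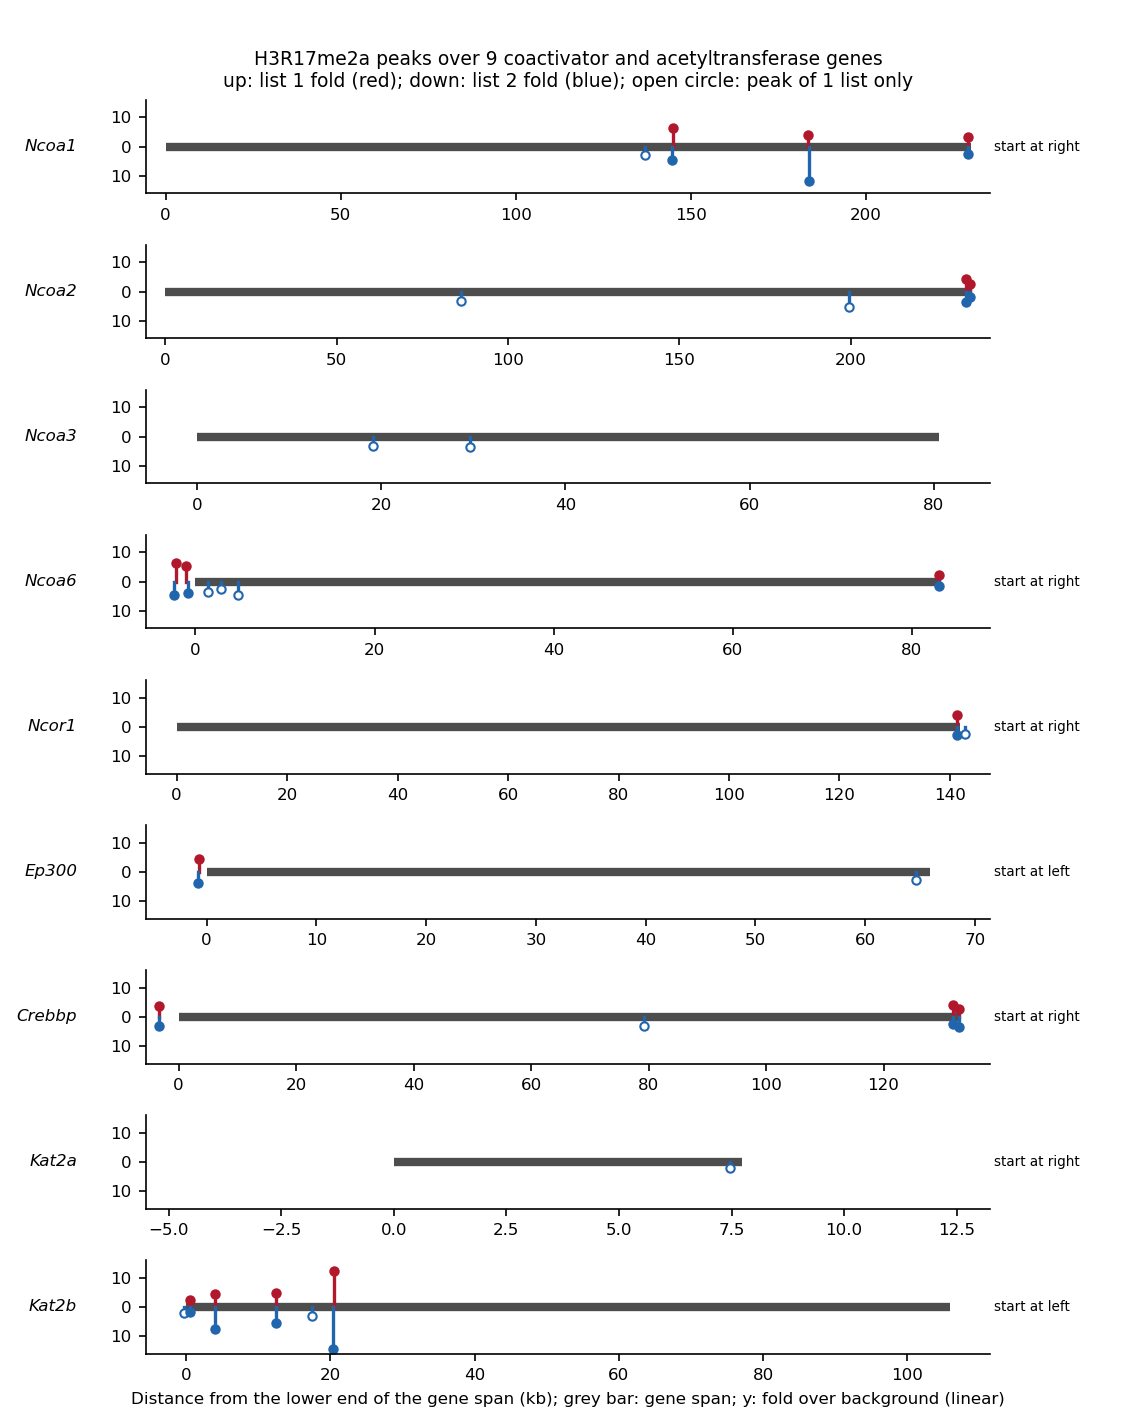
Peaks over each of the 9 genes, with the distance from the lower end of the gene span in kb on the x axis and the authors' linear fold over background on the y axis. List 1 is drawn upward in red and list 2 downward in blue, and open circles are peaks of 1 list only; the folds of 12.3 and 14.5 inside Kat2b are the highest of the set, and Ncoa3 and Kat2a show no red peak.

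Around the annotated starts of the genes, peaks of both lists covered the whole promoter window of Ncor1, reached into that of Ep300 from upstream and lay beside it at Crebbp, Ncoa1 and Kat2b. Start sites and sequences of the promoter window, 250 bases before to 50 after the start, were taken from RefSeq for GRCm38.p6 (mm10). The table held 9 starts for 7 of the genes. Ncoa2 and Ncoa3 had no entry. The 5 windows below are those with a peak of both lists within 1000 bp, shown because the peaks lie differently to each of them. Ncor1 is at chr11:62457283-62457582 on the minus strand, Ep300 at chr15:81585964-81586263 on the plus strand, Crebbp at chr16:4213355-4213654 on the minus strand, Ncoa1 at chr12:4477133-4477432 on the minus strand and Kat2b at chr17:53566721-53567020 on the plus strand. Each is printed 5′ to 3′ in the direction of transcription, and capitals mark matches, on either strand, to the motifs searched.
Ncor1: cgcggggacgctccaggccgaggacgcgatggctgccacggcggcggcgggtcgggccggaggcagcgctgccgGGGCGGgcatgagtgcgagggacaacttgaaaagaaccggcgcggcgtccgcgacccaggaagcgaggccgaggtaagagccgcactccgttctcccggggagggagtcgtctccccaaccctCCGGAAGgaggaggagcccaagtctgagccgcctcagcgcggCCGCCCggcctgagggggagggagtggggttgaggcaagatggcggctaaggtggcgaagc
Ep300: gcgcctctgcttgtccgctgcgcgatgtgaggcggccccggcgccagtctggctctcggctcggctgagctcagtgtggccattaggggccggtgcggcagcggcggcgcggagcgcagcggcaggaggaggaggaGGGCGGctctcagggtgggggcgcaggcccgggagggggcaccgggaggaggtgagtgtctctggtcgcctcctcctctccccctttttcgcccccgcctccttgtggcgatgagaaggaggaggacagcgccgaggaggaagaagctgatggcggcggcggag
Crebbp: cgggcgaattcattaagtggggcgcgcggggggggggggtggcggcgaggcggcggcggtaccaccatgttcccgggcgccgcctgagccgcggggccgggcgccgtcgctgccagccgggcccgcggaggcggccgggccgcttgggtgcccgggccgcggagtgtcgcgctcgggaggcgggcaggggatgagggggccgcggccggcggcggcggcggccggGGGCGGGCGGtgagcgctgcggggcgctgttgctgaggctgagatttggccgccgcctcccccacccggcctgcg
Ncoa1: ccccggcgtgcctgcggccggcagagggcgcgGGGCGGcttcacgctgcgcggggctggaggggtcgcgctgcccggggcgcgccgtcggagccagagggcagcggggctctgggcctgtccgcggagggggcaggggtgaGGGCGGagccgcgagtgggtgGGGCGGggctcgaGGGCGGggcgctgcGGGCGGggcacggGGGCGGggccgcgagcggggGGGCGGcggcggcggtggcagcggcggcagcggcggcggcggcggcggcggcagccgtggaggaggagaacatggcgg
Kat2b: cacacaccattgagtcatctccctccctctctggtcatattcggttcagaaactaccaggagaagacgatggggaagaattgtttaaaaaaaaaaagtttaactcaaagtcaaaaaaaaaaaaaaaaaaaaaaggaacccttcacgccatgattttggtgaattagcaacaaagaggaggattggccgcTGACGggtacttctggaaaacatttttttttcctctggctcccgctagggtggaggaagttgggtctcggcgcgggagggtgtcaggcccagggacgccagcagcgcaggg

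The letters searched were AGGTCA (a single nuclear receptor site), TGACG (one arm of the cyclic AMP response element) and the full palindrome of that element, CCGGAAG (ETS factors), GGGCGG (SP and KLF factors), CACGTG (E-box), TATAAA (the site of TBP) and the NRF1 palindrome. GGGCGG was found 7 times in the Ncoa1 window, 2 times at Ncor1, 2 overlapping times at Crebbp and 1 time at Ep300, and 46.2% of 21263 promoter windows of protein-coding genes hold it. Ncor1 also held 1 CCGGAAG (11.6% of all windows). The Kat2b window held 1 TGACG (23.6% of all windows) and none of the other motifs. AGGTCA was in 1 of the 9 windows of the set, that of Ncoa6, which is not printed and also held 1 TATAAA, and 14.7% of all windows hold AGGTCA. The Crebbp and Ncoa1 windows had 49 CpG dinucleotides each, a number reached by 1.28% of all windows, with GC contents of 82.0% and 84.7%. Ncor1 had 36 CpG, Ep300 30 and Kat2b 11, where the median over all windows was 13 and over windows with a peak of both lists 24.0.

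Over all 21263 annotated starts of protein-coding genes, 39.8% had a peak of both lists within 1000 bp and 35.3% had one overlapping the promoter window. Of the 9 starts of the coactivator genes, 5 had a peak within 1000 bp and 2 had one in the window. At Ncor1 the list 1 peak ran from -401 to 1046 bp relative to the start and the list 2 peak from -441 to 1135, both over the whole window. At Ep300 the peaks lay upstream, from -1324 to -90 bp in list 1 and from -1505 to -101 in list 2, and so held 161 and 150 bases of the window but not the start itself. At Crebbp 1 peak lay on each side, from -942 to -472 and from 146 to 504 bp in list 1, and from -976 to -457 and 150 to 508 in list 2. No peak of either list touched the Crebbp window, and 0.0988% of all starts (21) had that arrangement. Ep300 was the 1 start of the 9 with peaks of both lists in the 1000 bp upstream and no peak of either list downstream (2.51% of all starts). Ncoa1 was the 1 with peaks of both lists downstream and no peak of either list upstream (2.89%). At Kat2b the shared peak began 15 bp downstream of the window in list 1 and 10 bp in list 2. List 2 alone had a further Kat2b peak upstream, from -530 to -291 bp, with a fold of 2.01 from 13 reads, so that list 2 flanked this window too. At Ncoa1 the gap was 566 and 668 bp on the downstream side.

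The share of starts with a peak nearby but none in the window did not rise or fall steadily with its GC content. Among starts with a peak of both lists within 1000 bp, 6.99% (592 of 8471) had no peak of either list in the window. The share was 12% where the window had a GC content under 60%, as at Kat2b, 3.53% at 60 to under 70%, 3.90% at 70 to under 80% and 11.4% (20 of 176) at 80% or more, as at Crebbp and Ncoa1. Of the 21 starts with a peak on each side and a bare window, 10 had a window under 60% GC and 5 had one of at least 80% GC. These were 0.311% and 2.84% of the starts with a peak within 1000 bp in their class. The part of base composition in the position of these peaks was not tested.

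**Figure D2:**
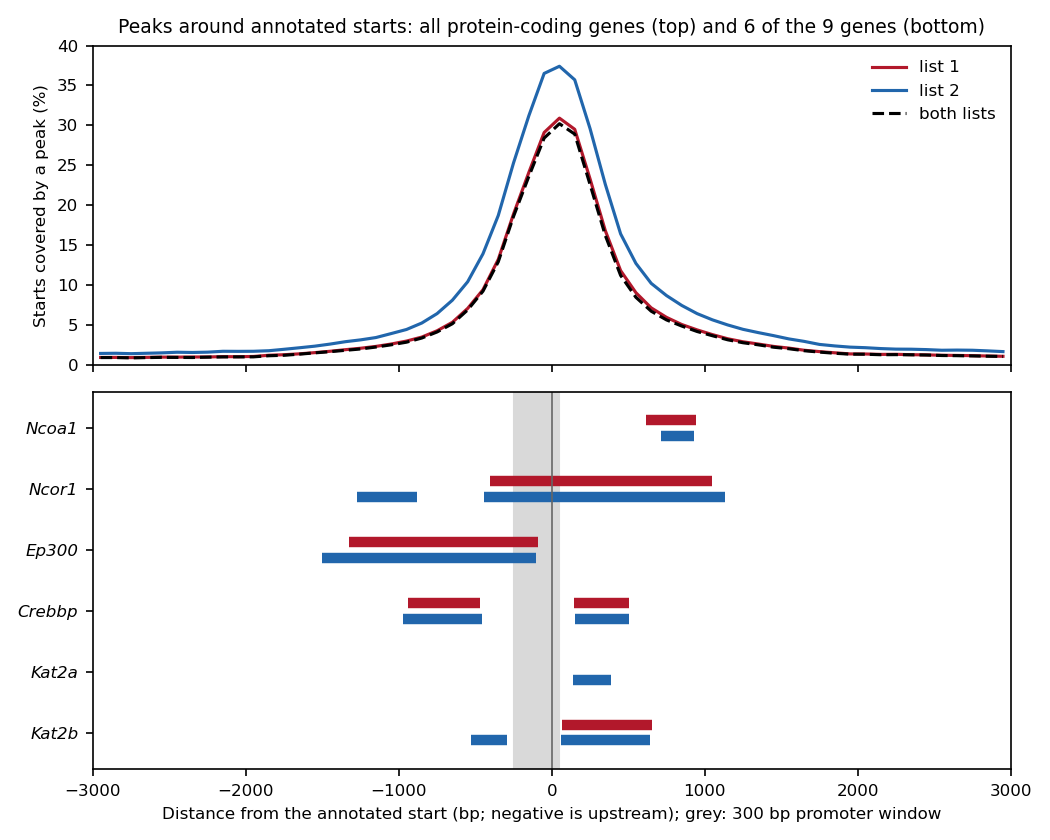
The upper panel gives the percent of 21263 annotated starts covered by a peak at each distance (bp, negative is upstream) for list 1, list 2 and both, and the lower panel gives the peaks of 6 genes as bars (red list 1, blue list 2) with the 300 bp promoter window in grey. Coverage over all genes is highest close to the start, while the bars of Crebbp lie on either side of the window and those of Ncoa1 and Kat2a lie downstream of it.

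Among the p160 coactivators, Ncoa1 and Ncoa2 carried peaks of both lists and Ncoa3 did not. Ncoa1 (SRC-1; gene ID 17977, chromosome 12, 4247362 to 4477206) had 3 peaks in list 1 and 4 in list 2. At its start the peaks were narrow, 328 and 214 bp, with folds of 3.33 and 2.67 from 18 reads (95% Poisson interval 10.7 to 28.4) and 16 reads (9.15 to 26.0). These folds were low for their lists, since 81.7% of list 1 and 84.0% of list 2 peaks had a fold at least as high. Its other 2 shared peaks lay 46.1 and 85.1 kb inside the gene from that end. The peak at 85.1 kb had folds of 6.47 and 4.63 from 12 and 11 reads.

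The Ncoa1 peak 46.1 kb inside the gene was the shared peak of the set at which the lists differed most in reads. List 1 gave it a fold of 4 from 15 reads (4430574 to 4431176, 603 bp) and list 2 a fold of 11.9 from 37 reads (4430428 to 4431613, 1186 bp). The summits were 1 bp apart, and the difference was 3.05 times the counting error. Of 10430 overlapping pairs with summits within 1 bp, 15 (0.144%) differed by at least 3 counting errors. In list 2 this peak stood in the top 1.54% by fold, and in list 1 68.7% of peaks had a fold at least as high, so its high rank rests on list 2.

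Ncoa2 (TIF2 or GRIP1, the p160 protein through which Carm1 was first found; gene ID 17978, chromosome 1, 13139105 to 13374227) had both its shared peaks near its upper limit. The stronger, at 13372495 to 13373099 in list 1, had folds of 4.29 and 3.58 from 89 and 91 reads and a −log10 p of 29.7 and 16, with summits 2 bp apart. It lay 1.48 kb inside the upper limit of the gene and thus outside the gene-end window. The peak that did touch the limit had folds of 2.48 and 1.76 from 45 and 44 reads, and in list 2 its −log10 p was 2.77. The background there was 17.6 reads in list 1 and 15 on the scale of list 2. List 2 alone held a further peak of 1322 bp, 35.8 kb inside the gene, with a fold of 5.36 from 13 reads.

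Ncoa3 (AIB1; gene ID 17979, chromosome 2, 165992637 to 166073242) had no list 1 peak in its window. Genes of 50 kb or more without one were 37.7% of all such genes. Its 2 list 2 peaks lay 19.1 and 29.8 kb inside the gene, with folds of 3.16 and 3.53 from 7 and 8 reads (95% Poisson intervals 2.81 to 14.4 and 3.45 to 15.8). Both had a −log10 q of 0.730. At this depth no mark was detectable at Ncoa3 beyond such weak calls. An end of the neighbour Sulf2 lies 657 bp from its upper limit and an end of the predicted gene LOC115489489 1144 bp from its lower limit.

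Ncoa6 (ASC-2, a coactivator outside the p160 family and a subunit of the Kmt2c and Kmt2d methyltransferase complexes; gene ID 56406, chromosome 2, 155390656 to 155473911) was marked at both ends in both lists, as were 1.78% of genes of 50 kb or more. The upper end, at the 5′ side of the minus-strand gene, had peaks of 366 and 428 bp with folds of 2.29 and 1.53 from 79 and 85 reads. The background there was 34.0 reads in list 1 and 34.0 on the scale of list 2. The list 2 −log10 p was 2.82. The 1 start that the promoter table lists for Ncoa6 lies inside the span, and no peak was within 1000 bp of it. The lower end had folds of 5.31 and 3.77 from 12 reads in each list, but the list 1 peak (155389441 to 155389765) lies inside the neighbouring gene Trp53inp2, whose span ends at 155389847, and the list 2 peak (155389565 to 155390019) crosses that end. Both peaks end before the Ncoa6 span begins and count for its lower end only through the 1000 bp window. These peaks cannot be assigned to 1 gene. A further shared peak 2.27 kb beyond the lower end, with folds of 6.47 and 4.44, lies inside Trp53inp2. List 2 alone added 3 peaks 1.58, 2.64 and 4.64 kb inside this end, from 7 to 11 reads.

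Ncor1, the corepressor that brings the deacetylase Hdac3 to receptors without ligand (gene ID 20185, chromosome 11, 62315663 to 62457414), had the widest peak of the set. Its list 1 peak was 1448 bp wide and its list 2 peak 1577 bp, widths reached by 4.79% and 4.56% of the peaks in their lists. The folds were 3.89 and 2.98 from 34 and 37 reads, with summits 7 bp apart and 63 and 56 bp downstream of the start. A second annotated start further into the gene, at 62438515, had no peak within 1000 bp. The gene Pigl starts 1027 bp away on the other strand, and a list 2 peak at that start (62458211 to 62458607, fold 2.64) had no partner in list 1. The body of Ncor1 held no peak of either list outside its upper end.

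The p300 and CBP pair had the deepest peaks at gene ends. Ep300 (gene ID 328572, chromosome 15, 81586209 to 81652077) had 1 list 1 peak, 1235 bp wide, with a fold of 4.52, a −log10 p of 55.8 and 166 reads (95% Poisson interval 142 to 193). Its list 2 partner was 1405 bp wide, with a fold of 3.68, a −log10 p of 28.2 and 165 reads (141 to 192). These were the most reads at any peak of the set. The background was 36.0 reads in list 1 and 27.0 on the scale of list 2. By fold the peaks were ordinary, with 58.0% of list 1 and 45.2% of list 2 peaks at least as high. No shared peak lay inside Ep300, and a list 2 peak near its far end rested on 6 reads.

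Crebbp (gene ID 12914, chromosome 16, 4081334 to 4213957) had 2 gene-end peaks in each list, on the 2 sides of the start. The upstream one had 129 and 121 reads, with folds of 2.71 and 3.61. Its background was 47.0 reads in list 1 and 20 on the scale of list 2. The downstream one had 24 and 22 reads with the same summit base, folds of 4.12 and 2.31, and a −log10 p of 9.67 and 2.90. A further shared peak (4077829 to 4078050, folds of 3.55 and 3.00, 77 and 81 reads) fell in the 5000 bp below the gene, with its summit 56 bp upstream of the start of the neighbour Trap1 in list 1 and 55 bp in list 2. Inside Crebbp the one peak was of list 2 alone, from 7 reads. The paralogues thus had their gene-end peaks near the start but not over it, and no shared peak further inside. They differed in that the peak of Ep300 was single and wide and Crebbp had 2 narrower ones.

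The pair of GCN5 (Kat2a) and PCAF (Kat2b), which take the same place in the SAGA complex, differed in the number of peaks and in length. Kat2a (gene ID 14534, chromosome 11, 100704746 to 100712485, the shortest gene of the set at 7.74 kb) had no list 1 peak, as did 50.7% of all protein-coding genes. Its list 2 peak was 249 bp wide, with its summit 144 bp downstream of the start. It had a fold of 2.02, a −log10 p of 2.26 and 18 reads, with a background of 5 on the scale of list 2. Kat2b (gene ID 18519, chromosome 17, 53566774 to 53672721) had 4 list 1 peaks and 6 list 2 peaks, and 13.1% of genes of 50 kb or more had at least 4 in list 1. All 4 list 1 peaks had a partner in list 2. Per 100 kb of window, Kat2b held 3.45 list 1 peaks and Kat2a 0, while in list 2 Kat2b held 5.17 and Kat2a, with its 1 peak, 5.64.

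The strongest peak of the set by fold lay inside Kat2b, 20.5 kb from its lower end. It spanned 53586935 to 53587551 in list 1 and 53586862 to 53587550 in list 2, with folds of 12.3 and 14.5 from 48 reads (95% Poisson interval 35.4 to 63.6) and 46 reads (33.7 to 61.4). These folds stood in the top 2.67% of list 1 and the top 0.766% of list 2. The background was 3.00 reads in list 1 and 1.03 on the scale of list 2. The summit was 3129 bp downstream of the second annotated Kat2b start in list 1 and 3094 bp in list 2. That second start itself had a peak in list 2 alone, from 7 reads. Near the first start the gene had more reads, 52 and 53, but over a background of 22.0 in list 1 and 20 on the scale of list 2. The folds there were 2.31 and 1.61, with a −log10 p of 7.82 and 2.33. Another 2 shared peaks lay between the starts, 4.04 kb in with folds of 4.43 and 7.41 and further in with folds of 4.67 and 5.36. The summits of the last pair were 594 bp apart, 12.7 kb in for list 1 and 12.1 kb in for list 2, at 13 reads each.

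**Figure D3:**
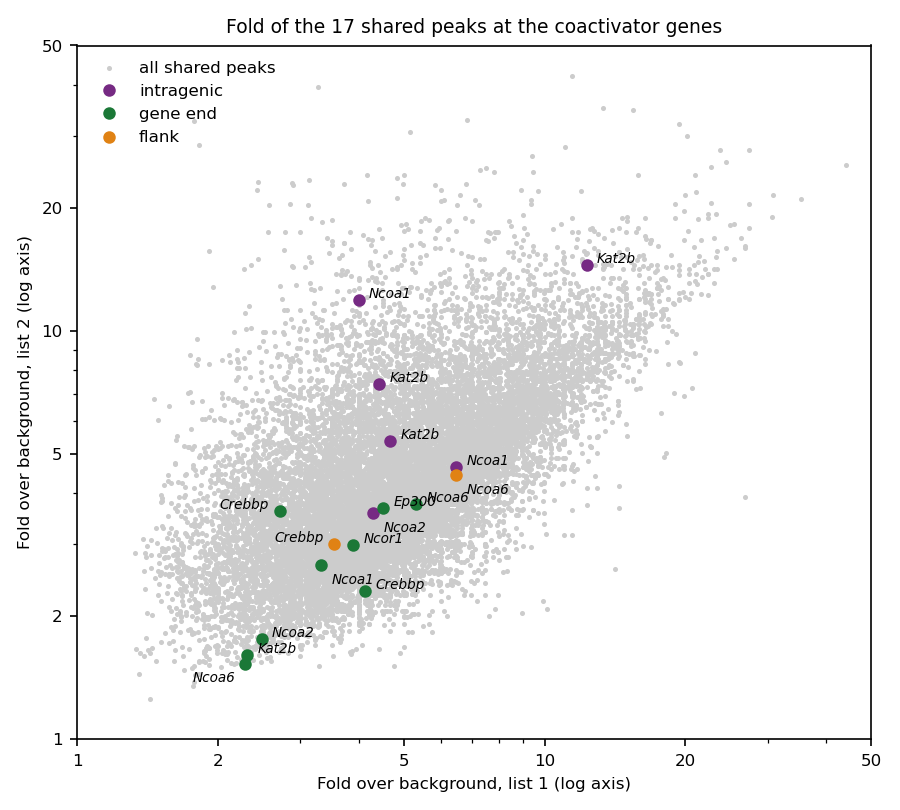
Fold over background of the 17 shared peaks at the coactivator genes in list 1 (x) and list 2 (y), both on log axes, coloured by position, over all 20878 shared peaks in grey. Gene-end peaks (green) lie between 2.29 and 5.31 in list 1 and between 1.53 and 3.77 in list 2, and the intragenic peaks of Kat2b and Ncoa1 (purple) reach the highest list 2 folds of the set.

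Of the 17 list 1 peaks, 9 lay at a gene end (52.9%, 95% exact binomial interval 27.8 to 77.0%), 6 inside a gene and 2 in a flank. Over the windows of all protein-coding genes the gene-end share was 43.8% in list 1, which lies in that interval. Over those of 50 kb or more it was 26.2%, which lies below it. The interval treats peaks as independent, though several share a gene, so it is no test against these shares. Both flank peaks lay in or at the start of a neighbouring gene. Of the 31 list 2 peaks, 12 lay at a gene end (38.7%, interval 21.8 to 57.8%), 17 inside and 2 in a flank. The gene-end share was 33.7% over all protein-coding genes, inside that interval, and 17.1% over those of 50 kb or more, below it. The same limit holds for this interval. The 14 list 2 peaks without a list 1 partner had a median −log10 p of 3.15, and 12 of them were below 5. Shared peaks inside the gene were found at 3 of the 8 genes of 50 kb or more (Ncoa1, Ncoa2 and Kat2b), against 35.8% of all genes of that length, so that this count was near the background. A shared peak anywhere in the window was found at 7 of the 9 genes, against 48.7% of all genes and 61.6% of those of 50 kb or more. The windows of the set held 1.45 list 1 and 2.64 list 2 peaks per 100 kb, below the 1.79 and 2.84 of all protein-coding genes. The 8 members of 50 kb or more held 1.47 and 2.60, above the 1.14 and 2.11 of all genes of that length.

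The 9 shared gene-end peaks of the set had a median fold of 3.33 in list 1, against 4 over the shared gene-end peaks of all protein-coding genes, and of 2.67 against 3.71 in list 2. Their median width was 471 bp against 516 in list 1 and 520 against 682 in list 2. They held about as many reads as others, a median of 45.0 against 49 in list 1 and 44.0 against 51.0 in list 2. The recovered background was higher, with a median of 17.6 reads against 11 in list 1 and 15 against 7 in list 2. In each list 5 of the 9 had a background of at least 15, in reads for list 1 and on its own scale for list 2. Over all genes the shares were 38.4% and 25%. The cut of 15 equals the set's own list 2 median, so in list 2 at least 5 of the 9 had to reach it. The 6 intragenic peaks lay over a median background of 3.00 and 1.02 reads, above the 2.17 of all intragenic peaks in list 1 and below the 2.00 in list 2. List 2 backgrounds are on the scale of reads multiplied by 0.6183, so the lists' backgrounds are not compared with each other. What made the background high at these gene ends was not tested.

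**Figure D4:**
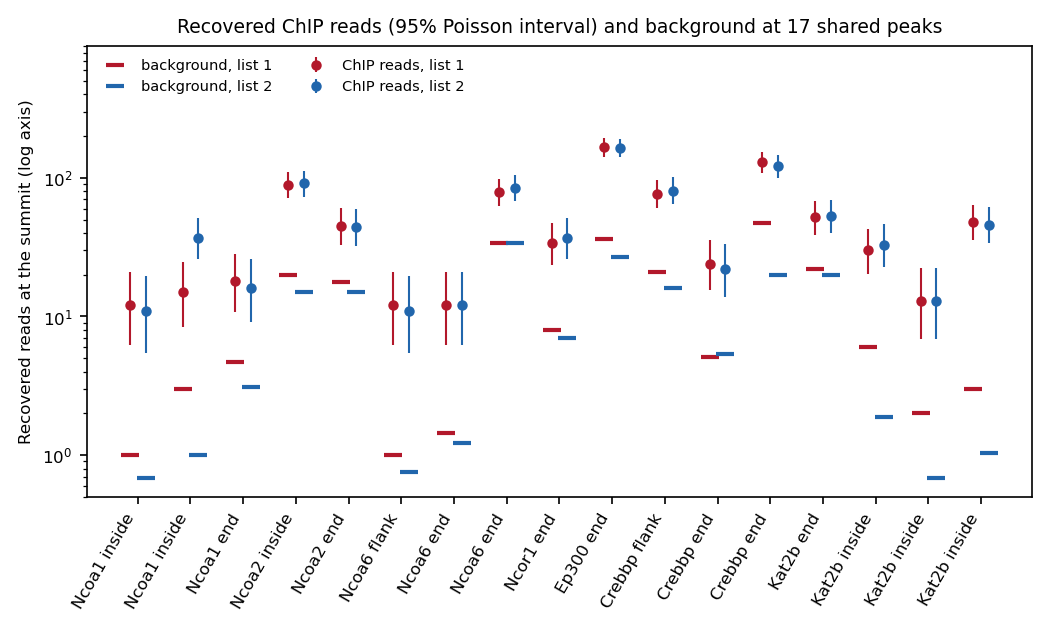
Recovered ChIP reads at the summit (points, with 95% Poisson intervals) and recovered background (dashes) for the 17 shared peaks, on a log axis, in list 1 (red) and list 2 (blue). Reads of the lists nearly coincide except at 1 peak inside Ncoa1 (15 and 37), and the gene-end peaks of Ep300, Ncoa2 and Kat2b, the upstream one of Crebbp and the upper one of Ncoa6 stand over backgrounds of 15 to 47.0 reads, with list 2 backgrounds on that list's own scale.

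Proteins that work with these 9 were marked at most of their genes. Of 41 genes in 7 lists of partners, 35 were marked at a gene end by both lists (85.4%), where 38.6% of all protein-coding genes were. At the common threshold, a −log10 p of 5, there were 31 (75.6%), where 33.0% of all genes were. All 15 genes listed for the SAGA and PCAF complex were marked, and 13 at the common threshold. The acetyltransferase of that complex, Kat2a or Kat2b, is not on the list, and Kat2a was marked in list 2 alone. The first 3 by summed fold rank were Supt7l (folds of 10.1 and 7.68, at an end near that of Slc4a1ap), Taf6l (6.89 and 6.56, with 3 other genes' ends nearby) and Supt3 (8.78 and 5.33). Of the 6 other lysine acetyltransferases listed, 5 were marked. They were led by Hat1, which acetylates newly made histone H4 (9 and 19.2), Kat8 (10.4 and 8.11) and Kat7 (2.35 and 5.74, near Gm11520). Kat5 had none.

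Of the 9 genes listed for the methyltransferase complexes that hold Ncoa6, 6 were marked. Rbbp5 had folds of 9.5 and 11.3 near an end of 6030442K20Rik and Kmt2d 4.15 and 7.21 near an end of Prkag1. Pagr1a had 6.5 and 2.79 near an end of Prrt2. Ash2l, Dpy30 and Kdm6a had none. Of the 5 genes listed for the corepressor complex of Ncor1, 4 were marked, among them Hdac3 (6.75 and 3.42, near Rell2) and Gps2 (2.27 and 4.15, near Neurl4). Tbl1x had a gene-end peak in list 2 alone, with a fold of 4.49. Of the other genes with Ncoa symbols Ncoa4 (5.16 and 8.11, near Msmb) and Ncoa5 (2.19 and 2.13) were marked and Ncoa7 was not. At the common threshold Ncoa4 alone was left, 1 of 3, near the 33.0% of all genes. The arginine methyltransferases Carm1 (4.33 and 2.86, near AB124611) and Prmt1 (2.59 and 4.26, near Gm15545) were marked, as was Med1, the Mediator subunit that binds receptors (3.92 and 2.88, near Gm38963). These lists were chosen with results of the data known and were given no test.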

How the data were processed

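H3R17me2a was measured by ChIP-seq in hearts of wild-type mice aged 21 days, as 2 samples. Per the submitters' processing notes, FastQC, Bowtie2 and mm10 were used, and no source used here names the peak caller, its control library or its filters. Each deposited peak list, in the 10-column narrow peak layout, gives per peak the authors' linear fold ratio over background and the −log10 p and −log10 q of the authors' caller, with starts converted here to 1-based. List 1 counts 1 mitochondrial peak, which lies over none of the genes used.

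Reads were recovered by taking the fold as (reads + 1) / (background + 1) and p as the Poisson probability of more reads than observed. List 2 needed reads multiplied by a factor of 0.6183, found by a scan of list 2 alone, and p was matched within 0.001 on the −log10 scale. After the p-values were exchanged between peaks, 0.982% and 2.60% matched. The step was tested on simulated data with a narrower range of backgrounds and reads than these peaks have. That test did not reach the background of 47.0 at Crebbp or the 166 reads at Ep300, nor the lowest backgrounds. The analysis that led to counting the samples as 1 was chosen after seeing the data.

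Gene spans came from a RefSeq table for GRCm38.p6, without strand, and starts and strands from its promoter table. A shared peak is one that overlaps a peak of the other list by at least 1 bp. Intervals are at 95% and cover counting error only. All 9 members are named, and of each partner list up to 3 marked genes with the lowest summed rank by fold and up to 3 unmarked, except that 1 gene the rule names is not reported here. Peaks of the set were compared with all protein-coding genes by counts and medians. Members and lists were chosen with earlier results of these data known. Analyses used Python 3.11.15, numpy 2.4.6, pandas 2.3.3 and scipy 1.17.1, and matplotlib 3.10.9 for figures. Alternatives covered each list alone, thresholds, overlap, window and flank.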

Additional observations from a re-analysis of the deposited data

How the results depend on the processing

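With each list alone, 7 to 8 genes had a gene-end peak, 7 to 9 had a peak in the window, the median width was 471 to 520 bp and 38.7 to 52.9% of peaks lay at gene ends. Held to a −log10 p of 5 or a −log10 q of 2, both lists gave 3 genes with gene-end peaks, and list 2 held 12 or 13 peaks in the windows. List 2 trimmed to the length of list 1 gave 4 genes and 14 list 2 peaks. In the upper 50% of each list by fold, 1 gene had gene-end peaks, 3 had a shared peak in the window, list 1 held 4 window peaks and list 2 held 14, and 25% of the list 1 peaks lay at gene ends. The other 43 of 54 values, with an overlap of 50%, other windows and flanks, stayed within 1.5 times the reported count or, for the share and the median width, within the interval or the spread over peaks. Annotated starts in place of span ends, an alternative added after seeing the data, gave 5 genes of the 7 with a listed start. The causes were not tested. No paired analysis was possible because there is 1 group and no test. Total depth is unknown, and peaks of 7 and 8 reads limit what can be said of Ncoa3.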
